A study of Arabidopsis thaliana with 4 samples.

Results

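Receptor-like cytoplasmic kinases of subfamily VII are the Arabidopsis kinases related to PBS1 and BIK1. They were followed here in seedlings in which the transcription factor Dof3.2 could be activated with dexamethasone (DEX). The genes were taken as a list of 40 loci, PBS1, BIK1 and the PBS1-like kinases. A locus was measured where the array annotation paired a probe set with that locus and no other. Probe sets that the annotation listed with several gene symbols were also left out. This may have removed probe sets of 1 gene with several names, which was not tested. By these rules 26 of the 40 loci had a probe set, each exactly 1, among 13286 loci with such a probe set. Of these 26, 13 were bright enough to test and 13 were dim. The family was chosen because AT5G35580 had already been seen to be higher after DEX in these arrays, so the changes below describe the family and give no independent support for a response.

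Kinases of this subfamily have no extracellular domain of their own. Many sit at the inner face of the plasma membrane, where receptor kinases that sense microbial molecules, damage peptides or growth hormones phosphorylate them. They pass the signal on to the NADPH oxidase RBOHD, to calcium channels and to MAP kinase cascades, and several are targets of bacterial effector proteins.

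All seedlings were Arabidopsis thaliana carrying 35S::Dof3.2-GR, in which a constitutive viral promoter drives Dof3.2 fused to the part of the glucocorticoid receptor that binds the hormone. They were raised at 22 °C, first for 4 days on agar medium (1% sucrose, kanamycin at 50 µg/ml) and then for 4 days in shaken liquid medium. For 3 h they received 10 µM DEX (2 arrays) or a mock treatment (2 arrays), and their RNA was measured on one-colour Affymetrix arrays. Nothing in the labels states that replicates were separate cultures, and the errors given here may be technical. DEX-treated seedlings without the fusion were not analysed here.

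Values are MAS5 signals, a brightness per probe set on a linear scale with the same trimmed mean of 500 on every array. Because probe sets differ in how brightly they hybridise, levels were compared between arrays for one gene and not between genes. In whole seedlings, fewer cells of a type and less RNA per cell cannot be told apart. Log2 signals correlated at r = 0.985 between the mock arrays, at r = 0.992 between the DEX arrays and at r = 0.982 to 0.986 across groups, over the 13648 tested probe sets. Green shoot markers and root markers were both measured, 4 of 6 and 3 of 6 with a probe set. Of these 7, 0 passed the threshold in limma, against 0.586% of all tested probe sets, which does not show that tissue composition was alike. EXPA18, a root hair expansin gene, had an unadjusted p under 0.05 (log2 change -0.43). In EXPA18 and in PORB, a green shoot marker (-0.23), both DEX values lay below both mock values, as in 21.1% of all tested probe sets. In the other markers the groups overlapped. Of 6 control ratios of 3′ to 5′ signal, a sign of RNA integrity, 1 did not overlap between groups. This ubiquitin control had ratios of 1.58 and 1.48 in mock and 1.37 in each DEX library. The ratios differed widely between controls. An actin control had the highest, 10.5 and 18.5 in mock and 18.6 and 17.3 in DEX libraries, with mock replicate 1 standing apart. The part of these ratios in the results was not tested.

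AT5G35580 encodes the kinase known as PBL13, a brake on immune signalling that restrains the oxidative burst by acting on RBOHD. Its signal was 112.3 and 131.4 in mock seedlings and 226.9 and 260.6 after DEX. Both DEX values lay above both mock values, by 1.73-fold in the closest pair and 2.32-fold in the widest. Within a group the arrays differed by 1.17-fold (mock) and 1.15-fold (DEX). The means were 121.8 ± 13.5 and 243.8 ± 23.9 (SD, n = 2 each), and the fitted log2 change was 1.00 ± 0.17 (SE), a 2-fold difference with a 95% interval of 0.61 to 1.39. This is the value for which the family was chosen.

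AT5G35580 was the 1 member of 13 tested that passed the threshold of the limma fit (adjusted p under 0.05 over all tested probe sets) with a rise, against 0.293% of all tested probe sets. The other direction had 0 of 13 members, also against 0.293%. Nothing can be read from the first count, since the family was chosen on that contrast. AT5G35580 stood 21st by size among rises on the log2 scale and 68th by p among the 13648 tested probe sets, counted from the largest and the smallest, so it was near the edge of the 80 called. Without DEX replicate 1 or 2, and without the filter on dim probe sets, it did not pass, with log2 changes of 1.10, 0.90 and 1.00. Its mock mean lay just above the level of the filter, a signal of 110.6.

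**Figure D1:**
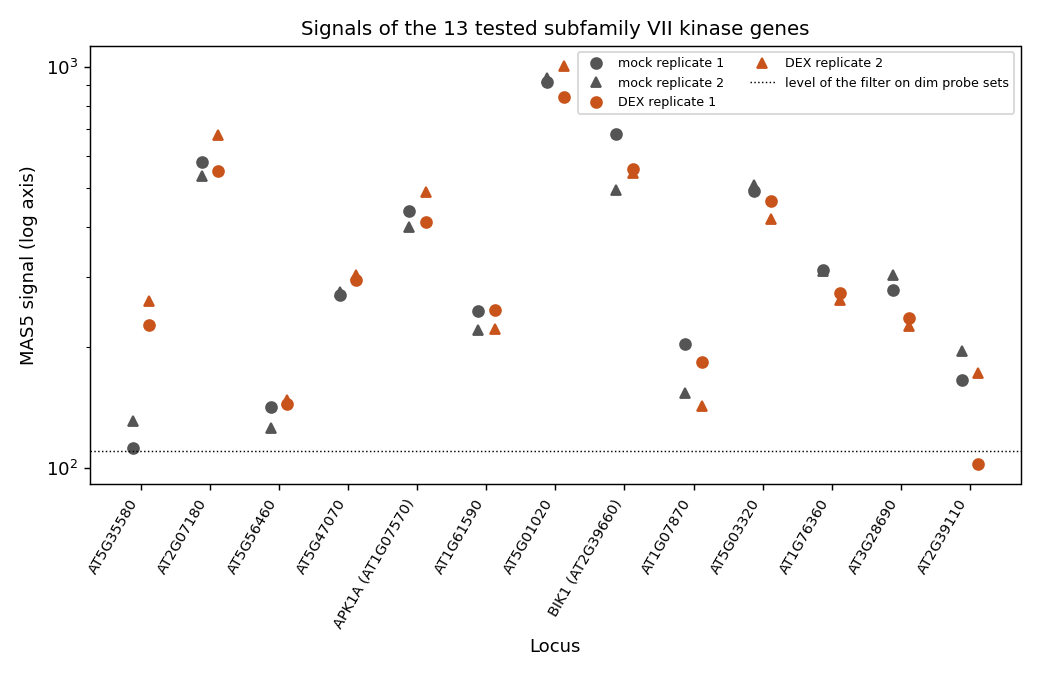
MAS5 signal (log axis) of each of the 13 tested kinase genes on each array, with circles for replicate 1, triangles for replicate 2, grey for mock and orange for DEX; genes run from the highest log2 change on the left to the lowest on the right. AT5G35580, far left, has both DEX points (226.9 and 260.6) well clear of both mock points (112.3 and 131.4), while in most other genes the points of both groups lie close together.

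The kinases that relay signals from pattern receptors had 13 loci in the list, 8 with a probe set and 6 tested. None of the 6 passed the threshold in limma in either direction, against 0.586% of all tested probe sets. An unadjusted p under 0.05 was found in 0 of them, against 9.25% of all. At such shares, 0 of 6 does not set these genes apart from the other probe sets. Their log2 changes ran from -0.44 to 0.13. BIK1, the kinase that FLS2 and BAK1 activate on sensing flagellin and that phosphorylates RBOHD, gave signals of 678.2 and 492.3 in mock seedlings and 555.2 and 544.2 after DEX. The DEX values of BIK1 lay between its mock values, which differed from each other by 1.38-fold. Its log2 change was -0.07 ± 0.16 (SE), with a 95% interval of -0.43 to 0.28.

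APK1A (AT1G07570), a close relative of BIK1, had signals of 436.6 and 398.6 in mock and 410.1 and 487.8 in DEX seedlings. The groups overlapped, and the log2 change was 0.10 ± 0.14 (SE). AT3G28690, known as PBL36, acts with its relatives PBL34 and PBL35 downstream of LORE, the receptor of bacterial hydroxylated fatty acids. Its signals were 277.7 and 303 in mock and 237.4 and 226.8 in DEX seedlings, with both DEX values below both mock values. The log2 change of AT3G28690 was -0.32 ± 0.15 (SE), and its 95% interval ran from -0.65 to just above 0.

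The list holds 4 kinases of the subgroup that links chitin and flagellin receptors to MAP kinase kinase kinases, AT5G47070 (PBL19), AT4G17660 (PBL20), AT2G39110 and AT5G03320. AT5G47070 had 270.3 and 275.1 in mock and 295.2 and 302.4 in DEX seedlings. Its groups did not overlap, the arrays within each group agreed to 1.02-fold, and the log2 change was 0.13 ± 0.14 (SE). AT5G03320 had 490.4 and 507.8 in mock and 462.9 and 418 in DEX seedlings, again without overlap but lower in DEX, with a log2 change of -0.18 ± 0.13 (SE). AT2G39110 had 165.5 and 195.9 in mock and 102.4 and 173.2 in DEX seedlings. Here DEX replicate 1 stood low and DEX replicate 2 lay among the mock values. The log2 change of AT2G39110, -0.44 ± 0.25 (SE), was the most negative of the tested members and had the largest SE, and it was -0.81 without DEX replicate 2 and -0.06 without DEX replicate 1. AT4G17660 was dim.

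**Figure D2:**
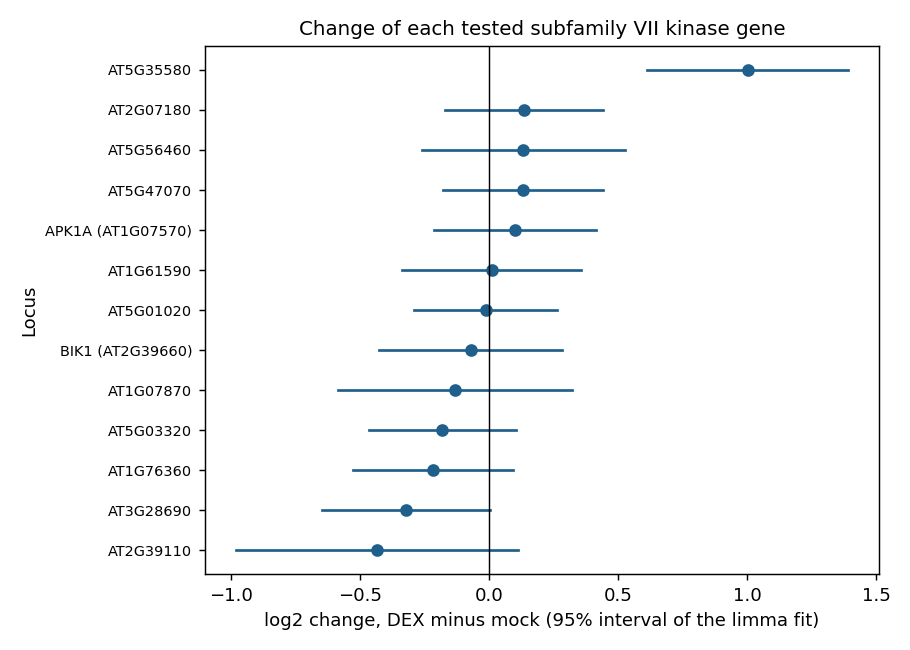
Log2 change from mock to DEX (points) with the 95% interval of the limma fit (bars) for the 13 tested kinase genes. The interval of AT5G35580 runs from 0.61 to 1.39, and the intervals of the other 12 genes all include 0.

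Of the 21 members to which the list gave no named role, 17 had a probe set and 6 were tested. The split is from general knowledge and not strict, since AT1G76360, among these, also acts with immune receptors. None of the 6 passed the threshold in limma, against 0.586% of all tested probe sets. An unadjusted p under 0.05 was found in 0, against 9.25% of all, so here too the counts set nothing apart. The log2 changes of the 6 ran from -0.22 to 0.14. AT1G76360, known as PBL31, a partner of immune receptor complexes, had signals of 312.5 and 310.3 in mock and 273.3 and 262 in DEX seedlings. Both DEX values were below both mock values, and the arrays within each group differed by at most 1.04-fold. The log2 change was -0.22 ± 0.14 (SE).

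AT5G56460 had 142 and 125.7 in mock and 144.5 and 148.4 in DEX seedlings, and AT2G07180 had 580.3 and 533.6 in mock and 551.5 and 677.4 in DEX seedlings. The DEX values of AT5G56460 were above its mock values by a narrow margin, and those of AT2G07180 overlapped with its mock values. Their log2 changes were 0.13 ± 0.18 and 0.14 ± 0.14 (SE). AT1G07870 had 204.3 and 154.4 in mock and 183.9 and 142.7 in DEX seedlings, a log2 change of -0.13 ± 0.20 (SE). AT1G61590 had 246.7 and 220.7 in mock and 248.4 and 222.4 in DEX seedlings, a log2 change of 0.01 ± 0.16 (SE). In both of these genes replicate 1 was the brighter array of each group, and the groups overlapped. AT5G01020 had 918.6 and 939.7 in mock and 841.6 and 1005 in DEX seedlings, with the mock values inside the DEX range and a log2 change of -0.01 ± 0.12 (SE).

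Across the 13 tested members, 6 log2 changes were above 0 and 7 below. The median was -0.01, as it was over all 13648 tested probe sets, and the median size of a change was 0.13 against 0.11 over all tested probe sets. Without mock replicate 1 the median of the members was 0.09, and without mock replicate 2 it was -0.07. Groups did not overlap in 6 of the 13 members, against 39.3% of all tested probe sets. In 3 of them DEX was higher (AT5G35580, AT5G56460 and AT5G47070), against 18.2% of all, and in 3 it was lower (AT1G76360, AT3G28690 and AT5G03320), against 21.1% of all. For the 12 members that did not pass, the 95% intervals reached at most a 1.98-fold fall, in AT2G39110, and a 1.44-fold rise, in AT5G56460. Of these 12, BIK1, APK1A, AT1G07870, AT1G61590, AT5G01020 and AT2G07180, all with a change of at most 0.14 in size, changed sign when at least 1 of the arrays was left out. The intervals bound the change of each gene in this fit and do not show that the gene did not change.

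**Figure D3:**
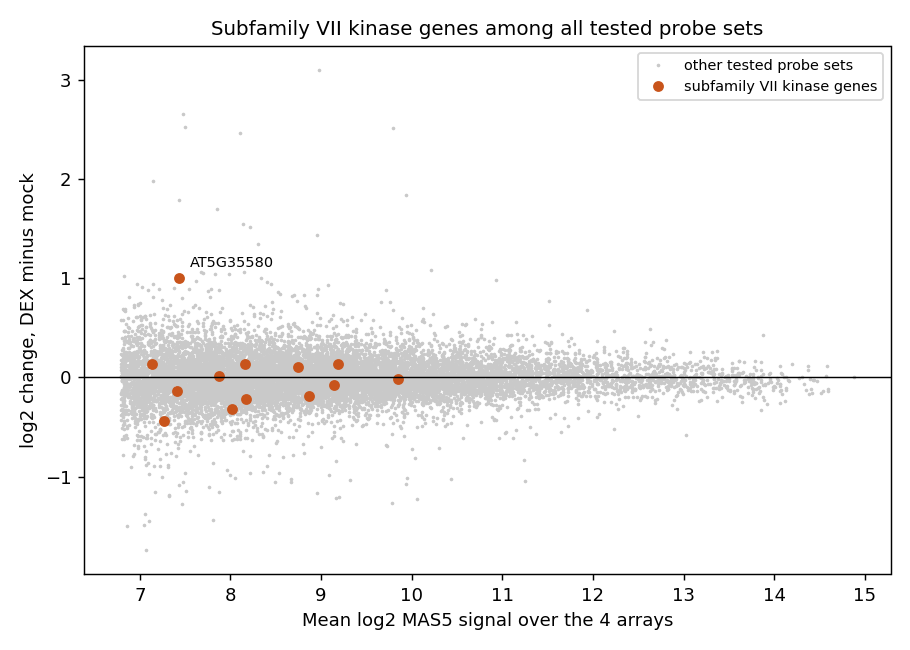
Log2 change from mock to DEX against mean log2 signal over the 4 arrays for all 13648 tested probe sets (grey) and the 13 kinase genes (orange). AT5G35580 lies near the dim end, at a log2 change of 1.00, and the other 12 members lie inside the band of the other probe sets, between -0.44 and 0.14.

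Leaving out the filter, dropping the variance trend or blocking on the replicate number cannot alter the size of the AT5G35580 difference, 1.00 in each. The family was chosen for AT5G35580, so its range over settings gives no independent support. Over 10 other settings its log2 change ran from 0.89, without mock replicate 1, to 1.12, without mock replicate 2, and it passed the threshold in 7 of them. The 3 in which it did not pass were those named above. A filter at the 60th percentile, a signal of 297.5, left this gene out.

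**Figure D4:**
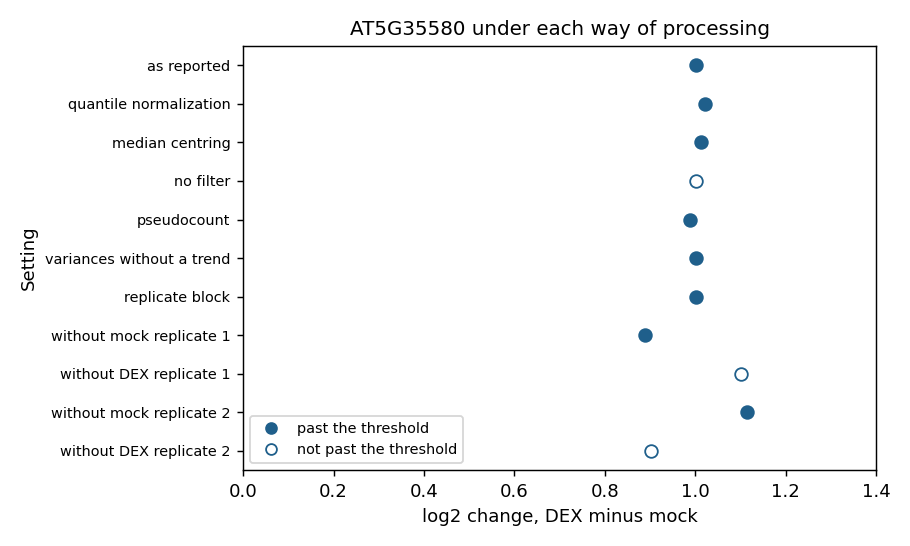
Log2 change of AT5G35580 from mock to DEX as reported and in 10 other settings, with filled points where it passed the threshold and open points where it did not. Every point lies between 0.89 and 1.12, and the 3 open points are the fits without the filter and without either DEX array.

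The 13 dim members had mean log2 signals under the 40th percentile of all probe sets. None exceeded a signal of 110.6 on any array, and their signals ran from 0.78 to 107.7. The share of members bright enough to test, 50%, may be set beside 54.1% of all 13436 probe sets paired with a single locus. Just above the level of the filter, AT5G56460 had a mean signal of 139.9, and just below it AT2G28590 had one of 88.6. No detection calls were used here, and signals this low are noisy. AT5G18610 (PBL27), which relays the chitin signal from CERK1 to MAPKKK5, had 39.8 and 28.2 in mock seedlings and 34.3 and 2.77 after DEX. Within DEX the arrays of this gene thus differed by 12.4-fold.

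Groups did not overlap in 2 of the 13 dim members with DEX higher and in 4 with DEX lower, against 14.4% and 22.2% of all 9098 dim probe sets. AT1G69790 had 44.2 and 51.8 in mock and 68.1 and 70 in DEX seedlings, and AT1G74490 had 50.8 and 52.4 in mock and 61.7 and 76.3 in DEX seedlings. AT3G07070 had 51.6 and 75.4 in mock and 28.6 and 24.7 in DEX seedlings, and AT1G24030 had 68.1 and 50.5 in mock and 28.3 and 41.6 in DEX seedlings. The other 2 with DEX lower, AT3G24790 and AT1G72540, had every signal under 20. In a fit without the filter, none of the 26 members passed the threshold in limma in either direction, against 0.11% of all 22746 probe sets in that fit. Of the 26, 3 had an unadjusted p under 0.05 (AT5G35580, AT3G24790 and AT3G07070), against 8.04% of all.

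**Figure D5:**
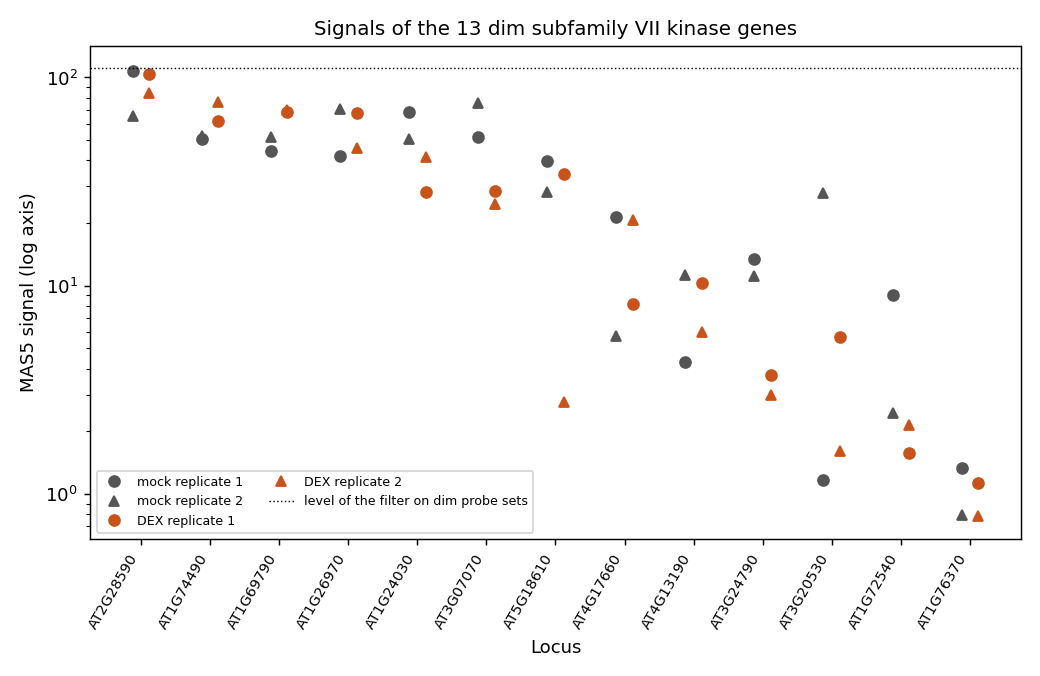
MAS5 signal (log axis) of each of the 13 dim kinase genes on each array, ordered by mean level, with circles for replicate 1, triangles for replicate 2, grey for mock and orange for DEX. Every point lies under the dotted level of the filter at 110.6, and below a signal of about 20 replicates of one group can differ several-fold.

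AT1G76360 and AT1G76370 are the 1 pair of members that are direct neighbours among protein-coding genes in the RefSeq annotation of assembly TAIR10.1; the next closest pair has 32 genes between. The pair differed in whether it could be measured. AT1G76360 was among the tested members, whereas AT1G76370 had signals of 1.34 and 0.8 in mock seedlings and 1.13 and 0.78 after DEX, too low for any comparison.

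The 14 loci without a probe set under the pairing rules may still be represented on the array. They included PBS1, after which the PBS1-like kinases are named, PBL1, the closest relative of BIK1, and RIPK, which phosphorylates the guarded protein RIN4. They also included CDL1, which acts in brassinosteroid signalling, and CST (CAST AWAY), which restrains the shedding of floral organs. These loci were not analysed here. AT5G15080 and AT3G01300, the relatives of AT3G28690 known as PBL34 and PBL35, shared 1 probe set, which falls outside the rule. It had signals of 235.3 and 233.6 in mock and 301.9 and 240.1 in DEX seedlings, both DEX values above both mock values, with a log2 change of 0.20 ± 0.16 (SE) that did not pass the threshold.

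Other genes of pattern-triggered immunity came from a list of 54 loci, of which 8 had a probe set under the same pairing rules and 7 were tested. None of the 7 passed the threshold in limma in either direction, against 0.586% of all tested probe sets, and 2 had an unadjusted p under 0.05, against 9.25% of all. These 2, AT4G08850 and WRKY53, were both lower in DEX. Over the 7 the median log2 change was -0.10, with 3 above 0 and 4 below. In 3 of the 7 both DEX values lay below both mock values, against 21.1% of all tested probe sets. The reverse held in 0 of the 7, against 18.2% of all. The 14 listed oxidase, channel and MAP kinase genes that act downstream of the kinases, RBOHD among them, had 0 probe sets under these rules. This does not show that the array lacks them.

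Among receptors, 3 of 14 listed genes were tested. FER, a receptor kinase of growth and immune signalling, had 1618 and 1438 in mock and 1433 and 1390 in DEX seedlings, with a log2 change of -0.11 ± 0.11 (SE). AT4G08850, known as MIK2, which senses SCOOP peptides, had 1816 and 1905 in mock and 1700 and 1380 in DEX seedlings. Both genes had DEX values below their mock values, by a small margin in FER, and the log2 change of AT4G08850 was -0.28 ± 0.12 (SE). SD1-29, the gene of the LORE receptor, had a log2 change of 0.00 ± 0.15 (SE) with signals between 213.6 and 230.8 on all 4 arrays. EFR, the receptor of bacterial elongation factor, was dim.

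The ubiquitin ligase genes PUB25 and PUB26, whose products limit the amount of BIK1, had log2 changes of 0.22 ± 0.24 and -0.10 ± 0.19 (SE), and their groups overlapped. Of the induced output genes, 2 of 12 were tested. WRKY53, a transcription factor gene that rises early in immune responses, had 246.6 and 202.3 in mock and 159.3 and 153.7 in DEX seedlings. All its DEX values were lower, with a log2 change of -0.51 ± 0.17 (SE) that did not pass the threshold. WRKY22 had 112.6 and 120.2 in mock and 107.1 and 137.3 in DEX seedlings, which overlapped, and a log2 change of 0.06 ± 0.20 (SE).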

How the data were processed

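The deposited intensities are one-colour Affymetrix signals on a linear scale summarised by the authors in MAS5 (per the submitters' processing notes); the version and settings are not given in the sources used here. The mean signal, trimmed by 2% at each end, was 500 on all 4 arrays. Such scaling hides any change in the total RNA of a cell, and the number of arrays limits the precision. Of 22810 probe sets, 64 controls were left out. Probe sets with a mean log2 signal under the 40th percentile were left out as dim (9098), and 13648 were tested. The DEX and mock arrays were compared on log2 signals, with no pseudocount, in limma 3.58.1 under R 4.3.3. Its variances followed a trend on the mean, tests were two-sided, and p-values were adjusted by Benjamini-Hochberg over all tested probe sets (threshold 0.05). Each test had 9.74 degrees of freedom, 2 of them from the arrays themselves. The fit was also run on simulated data with normal errors, which checks the calculation and gives no support to the changes reported here. Probe sets were paired with loci through the array annotation and the RefSeq genes of TAIR10.1. Those listed with several genes or several gene symbols were not paired. Common names absent from the RefSeq genes (PBL13 and the like) and roles are from general knowledge. The members and lists were chosen with earlier results of these data known. Members that passed or had the largest changes, up to 6 in each direction, are given with all values. Other tested members are given at least by their change, and dim members at least by the joint range of their signals. Of the immunity list up to 3 genes per role are given. Alternatives were leaving out the filter or raising it to the 60th percentile, centring arrays on their median or quantile-normalizing them, adding 2.13 to each signal, dropping the variance trend, the replicate number as a block, the mean of several probe sets of a locus, and each array left out.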

Additional observations from a re-analysis of the deposited data

How the results depend on the processing

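AT5G35580 kept its direction in all 10 settings that tested it. With both DEX values above both mock values, leaving out 1 array could not reverse the direction of AT5G35580. It did not pass without the filter (log2 change 1.00) or without either DEX array, and the cause was not tested. With 1 array left out, its log2 change was 0.888 to 1.115 and 0 to 1 members rose. Without the filter 0 of 26 members rose, and with one at the 60th percentile 0 of 5, the latter without AT5G35580. The members' median log2 change was -0.07 to 0.091 with 1 array left out. The other 12 members gave 125 values over the settings, none of them past the threshold, and 6 of the 12 changed sign in at least 1 setting. Over all probe sets, 25 passed without the filter (15 rose, 10 fell) and 43 with the stricter one (20 and 23). With the replicate number as a block, 185 passed (98 rose, 87 fell), AT5G35580 among them; same-numbered arrays deviated together at r = 0.109 across probe sets, but the arrays share only a number. With 1 array left out, 25 to 496 passed, of which 13 to 276 rose and 12 to 220 fell. Such a fit takes its spread from the group that keeps both arrays. No immunity gene passed in any setting, and no member had several probe sets, so averaging them changed nothing.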
